A study of Homo sapiens with 18 samples.

Results

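The 45 genes described here encode proteins of the large (60S) subunit of the cytosolic ribosome. They were taken from a fixed list of RefSeq protein-coding symbols, without pseudogenes, and all 45 were found among 20037 protein-coding genes of the annotation. The list chose no member by a measured value, but it was made with earlier results of these data known. The list does not hold every gene for a large-subunit protein. The study mapped where MYC, a transcription factor and oncoprotein, contacts RNA, by enhanced crosslinking and immunoprecipitation (eCLIP), which fixes proteins to RNA with ultraviolet light and sequences the fragments recovered with an antibody, here against FLAG. It used U2OS osteosarcoma cells, with the endogenous MYC knocked out and a FLAG-tagged MYC under a doxycycline switch. The tagged protein was wild-type MYC, the mutant 3A or the mutant 7A, whose altered residues are not stated in the labels. Each of these 3 groups had 2 immunoprecipitated libraries and 1 input after doxycycline at 1 µg/mL for 24 h. Matching cells given saline (PBS) for 24 h were not analysed here.

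The data were 1 deposited peak list for each allele with doxycycline, on the build hg38. There were 2149 peaks for the wild type, 103 for 3A and 88 for 7A. No value could be split by replicate, so no test between alleles was made, and sequencing depth is unknown. Each fold enrichment and −log10 q is the authors' own for that peak and is read only against other peaks of its list. RNA abundance was not measured in these lists, so a preference of MYC for these messages and their high abundance cannot be told apart. For the same reason, the labelled cell line could not be checked against marker genes.

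The large subunit holds the site where amino acids are joined and the tunnel through which the new chain leaves. Its protein genes are short, are read at a high rate in growing cells, and their messages mostly start with a run of pyrimidines, the terminal oligopyrimidine (TOP) motif, through which their translation is coupled to growth signals. MYC is known as an activator of ribosomal protein genes at the level of DNA, whereas eCLIP reports contacts with RNA.

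Most large-subunit genes carried wild-type MYC peaks. A peak that shared at least 1 bp with the annotated gene was found in 34 of the 45 genes (75.6%, 95% Wilson interval 61.3 to 85.8), where 6.78% of all protein-coding genes had one. The 34 genes held 69 peaks, 3.21% of the wild-type list. By number of peaks, 13 genes had 1, 10 had 2, 8 had 3, and RPL3, RPL5 and RPL27 had 4. Of the 34 genes, 21 (61.8%) had at least 2 peaks, as did 402 of the 1359 protein-coding genes with a peak (29.6%) and 216 of 593 (36.4%) among protein-coding genes of the members' length range, 1335 to 17436 bp. The small-subunit genes had 14 of 22 (63.6%) and other messages of the TOP class 7 of 9 (77.8%), shares no lower than that of the large subunit. No test of these differences was made.

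Shares in related gene lists ran from 68.8% down, and that of the small subunit had an interval overlapping that of the large subunit. Of 32 small-subunit genes, 22 had a wild-type peak (68.8%, interval 51.4 to 82.0), with 42 peaks. Of 16 other messages of the TOP class, such as those of elongation factors, 9 had a peak (56.2%). Of 39 assembly factors of the large subunit, 15 had one (38.5%), and of 49 large-subunit proteins of the mitochondrial ribosome, 13 (26.5%). Among protein-coding genes of the members' length range the share was 7.84% (593 of 7568). The intervals of the large-subunit genes and of the assembly factors did not overlap, but they cover counting over genes only. These lists also differed in median gene length (5057 bp and 17693 bp), and the difference in share was not tested. The 6 paralogs RPL3L, RPL7L1, RPL10L, RPL22L1, RPL26L1 and RPL39L had 0 wild-type peaks. Beside the 7.84% in protein-coding genes of the members' length range, 0 of 6 is near that share. It is not a result about these paralogs.

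**Figure D1:**
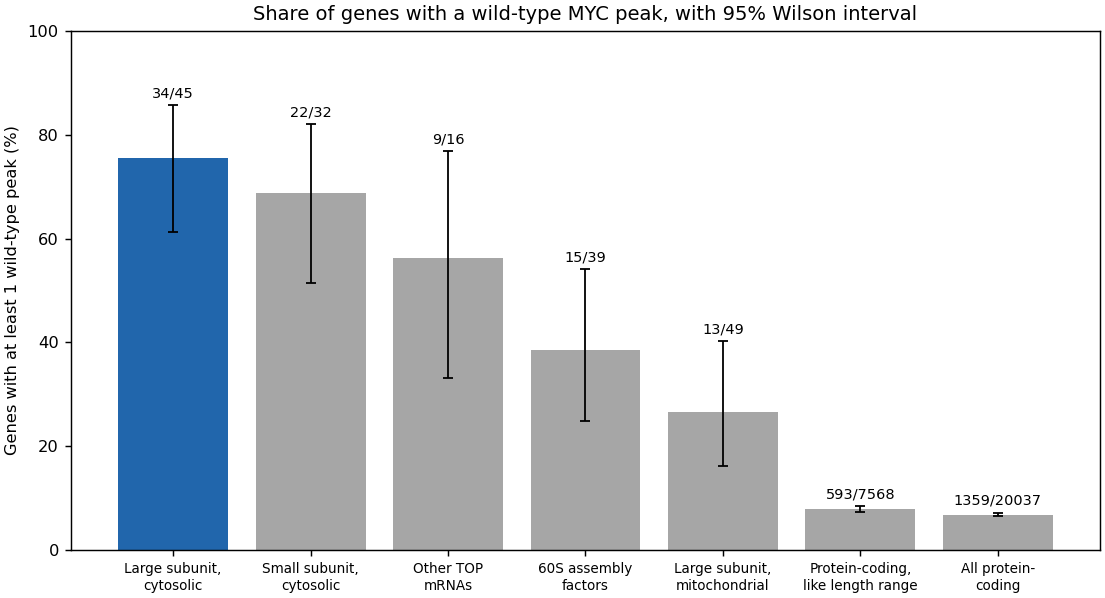
Share of genes with at least 1 wild-type MYC peak (vertical axis, %) in 7 sets of genes, with counts above the bars and 95% Wilson intervals, which cover counting over genes only. The large-subunit genes (34 of 45) and small-subunit genes (22 of 32) are the highest bars, and all protein-coding genes (1359 of 20037) the lowest.

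By fold enrichment the large-subunit peaks were ordinary members of the wild-type list, and by −log10 q they stood high in it. Their fold enrichment ran from 2.88 to 27.4 with a median of 8.41, where the whole list had a median of 8.11. By fold enrichment 37 of the 69 (53.6%, interval 42.0 to 64.9) lay above the median of the list. Their median −log10 q was 30.1, where the whole list had 17.85, and by that measure 53 of 69 (76.8%, interval 65.6 to 85.2) lay above the median. The median −log10 q was 31.7 for small-subunit peaks and 24.1 for those of the other TOP messages, both also above that of the list. Of the 100 wild-type peaks with the highest fold enrichment 4 were on these genes, and of the 100 with the highest −log10 q 11 were. The −log10 q grows with the number of reads at a site as well as with enrichment, and read numbers are not in the lists. Peak width was 102 to 635 bp with a median of 155 bp (165 bp in the whole list).

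**Figure D2:**
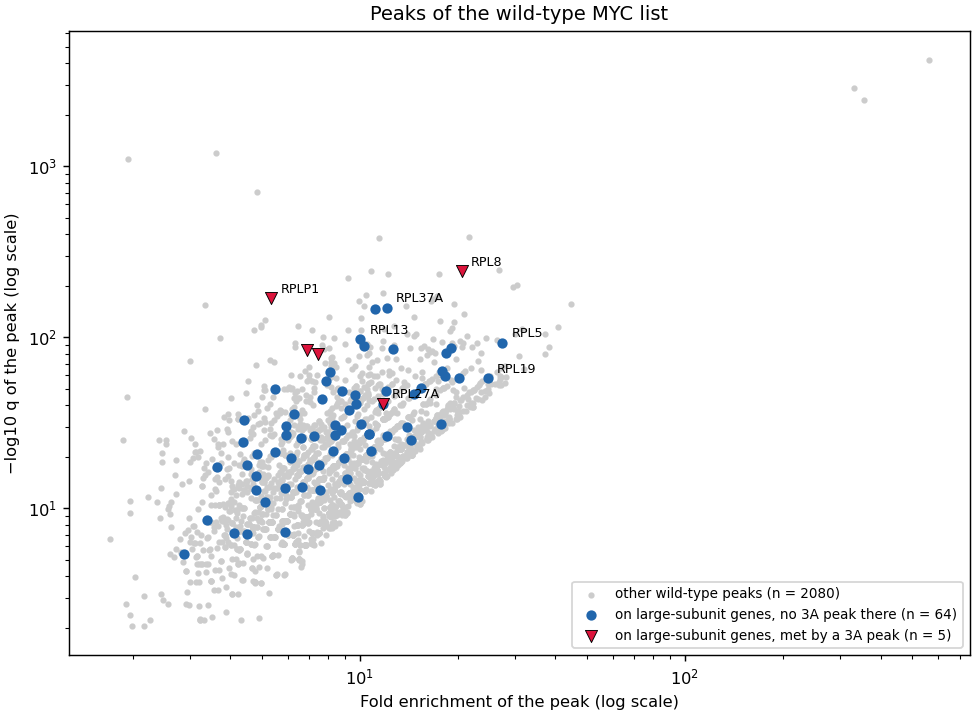
Fold enrichment (horizontal, log scale) and −log10 q (vertical, log scale) of each wild-type peak. Grey points are peaks elsewhere, blue points the large-subunit peaks without a 3A peak, and red triangles the 5 that a 3A peak met. Large-subunit peaks spread over nearly the whole range of fold enrichment, from rank 18 to rank 2106, and RPL8, RPLP1 and RPL37A are their highest in −log10 q. The RPL27A triangle covers a RPL27 peak with the same values.

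The 4 genes of the stalk that draws translation factors to the ribosome, RPLP0, RPLP1, RPLP2 and RPL12, had wild-type peaks, as did RPL10A. RPLP2 encodes an acidic protein of the stalk tip and had 2 peaks, on chromosome 11 from 810245 to 810410 (fold enrichment 18.4, rank 129 of 2149) and from 812549 to 812874 (15.4). The summits of these lay 362 and 2649 bp from the start of a gene of 2910 bp, so that both ends of the gene were marked. RPLP1, its partner at the tip, had a single peak on chromosome 15 from 69452858 to 69453041, 100 bp into the gene by its summit. That peak had a fold enrichment of only 5.34 (rank 1689) beside a −log10 q of 169, the 20th highest of the list. RPLP0, which anchors the stalk, had 1 peak (4.09), and RPL12, at the stalk base, had 2 (7.54 and 5.90). RPL10A, a protein of the opposite stalk at the tRNA exit side, had 3 peaks, of 4.79, 7.63 and 6.95, and the first of these was the widest of all large-subunit peaks at 635 bp.

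RPL5 and RPL11 encode the proteins that bind 5S ribosomal RNA and, when free of ribosomes, can restrain the p53 inhibitor MDM2. RPL5 had the highest fold enrichment of all members. That peak, on chromosome 1 from 92841778 to 92841932, had 27.4 (rank 18) and lay at the far end of the gene, 9873 bp from the start, with its last 8 bp past the annotated end. The other 3 RPL5 peaks had fold enrichments of 8.80, 14.0 and 8.27 with summits 152, 1648 and 2894 bp from the start. All RPL5 peaks but that at 152 bp, and so also the strongest, overlapped the protein-coding gene DIPK1A as well. The strand of RPL5 is not given here, so these peaks were not assigned to either gene by strand. RPL11 had a peak near the start, 924 bp in (5.95), and another near the end, 4090 bp in (10.7). In both genes the peak closest to the end was the stronger by fold enrichment.

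Of the proteins near the reaction centre, RPL3, RPL4, RPL8 and RPL10 all had peaks. RPL3 had 4, of low fold enrichment (3.40 to 6.59), all between 2313 and 4873 bp into a gene of 6742 bp. RPL4, whose protein narrows the exit tunnel, had 3 (7.86, 9.75 and 8.39), at 5422, 2194 and 1769 bp. RPL10, a protein that joins the subunit late in its assembly, had 1 peak, with the lowest fold enrichment of all members (2.88, rank 2106). RPL8 had 3, and its first was the member peak with the highest −log10 q (244, rank 10 of 2149, fold enrichment 20.6). That peak also overlapped the microRNA gene MIR6850. RPL8 was also the gene with most 3A peaks, described below.

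Around the tunnel exit, 4 of 8 genes had a wild-type peak. RPL19 had 3, of which the middle, on chromosome 17 from 39202328 to 39202501, had the second highest fold enrichment of the members (24.8, rank 35) and the others had 17.9 and 5.48. RPL31 had 2 strong peaks (20.1 and 18.3) at 512 and 3759 bp of a gene annotated with 17436 bp. RPL23A, where the signal recognition particle docks, had 2 (12.1 and 7.51), and RPL35 had 2 (8.41 near the start and 8.10 at the end, the latter reaching 34 bp past the annotated gene). RPL17, RPL22, RPL26 and RPL39 had none.

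Among the other 26 genes, 19 had a peak. RPL37A had 3, on chromosome 2 at summits of 522, 1188 and 2587 bp, with the highest fold enrichment furthest along (11.2, 12.1 and 19.1), while the −log10 q was higher for the first pair (145 and 149) than for the last (86.7). RPL27 had 4 (17.79, 11.8, 10.3 and 10.7), from 325 to 4481 bp. RPL13 had 3 (12.6, 10.0 and 4.81), lower with each step from the start. RPL38, whose protein is known for a role in the translation of Hox messages, had 3 with the same order (12.03, 6.65 and 4.85). RPL23 had 2 (14.7 and 9.64), and RPL34 had 1 (14.4). RPL27A had 2 (10.8 and 11.8). RPL18 had 3 weak peaks (5.13, 5.88 and 4.51), and RPL30 and RPL32 had 2 each, up to 9.30 and 10.1. The 9 remaining genes, RPL7A, RPL9, RPL14, RPL21, RPL29, RPL35A, RPL36, RPL36A and RPL37, had 1 peak each, with fold enrichments from 4.36 (RPL29) to 9.86 (RPL36A).

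The 11 genes with no wild-type peak were RPL6, RPL7, RPL13A, RPL15, RPL17, RPL22, RPL24, RPL26, RPL28, RPL39 and RPL41. Their median length was 5628 bp (1335 to 17411), and that of the 34 genes with a peak was 4905 bp (1581 to 17436), so the ranges overlapped almost fully. RPL41, which encodes the smallest of the ribosomal proteins, was the shortest gene, and RPL28 the second longest. The 11 genes had a median of 26 named pseudogenes each (6 to 61) and the 34 genes had 14.5 (5 to 137). The gene with the most, RPL21 (137), was among the 34. Near-identical copies can take or lose reads when they are placed on the genome, and whether this played a part was not tested.

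**Figure D3:**
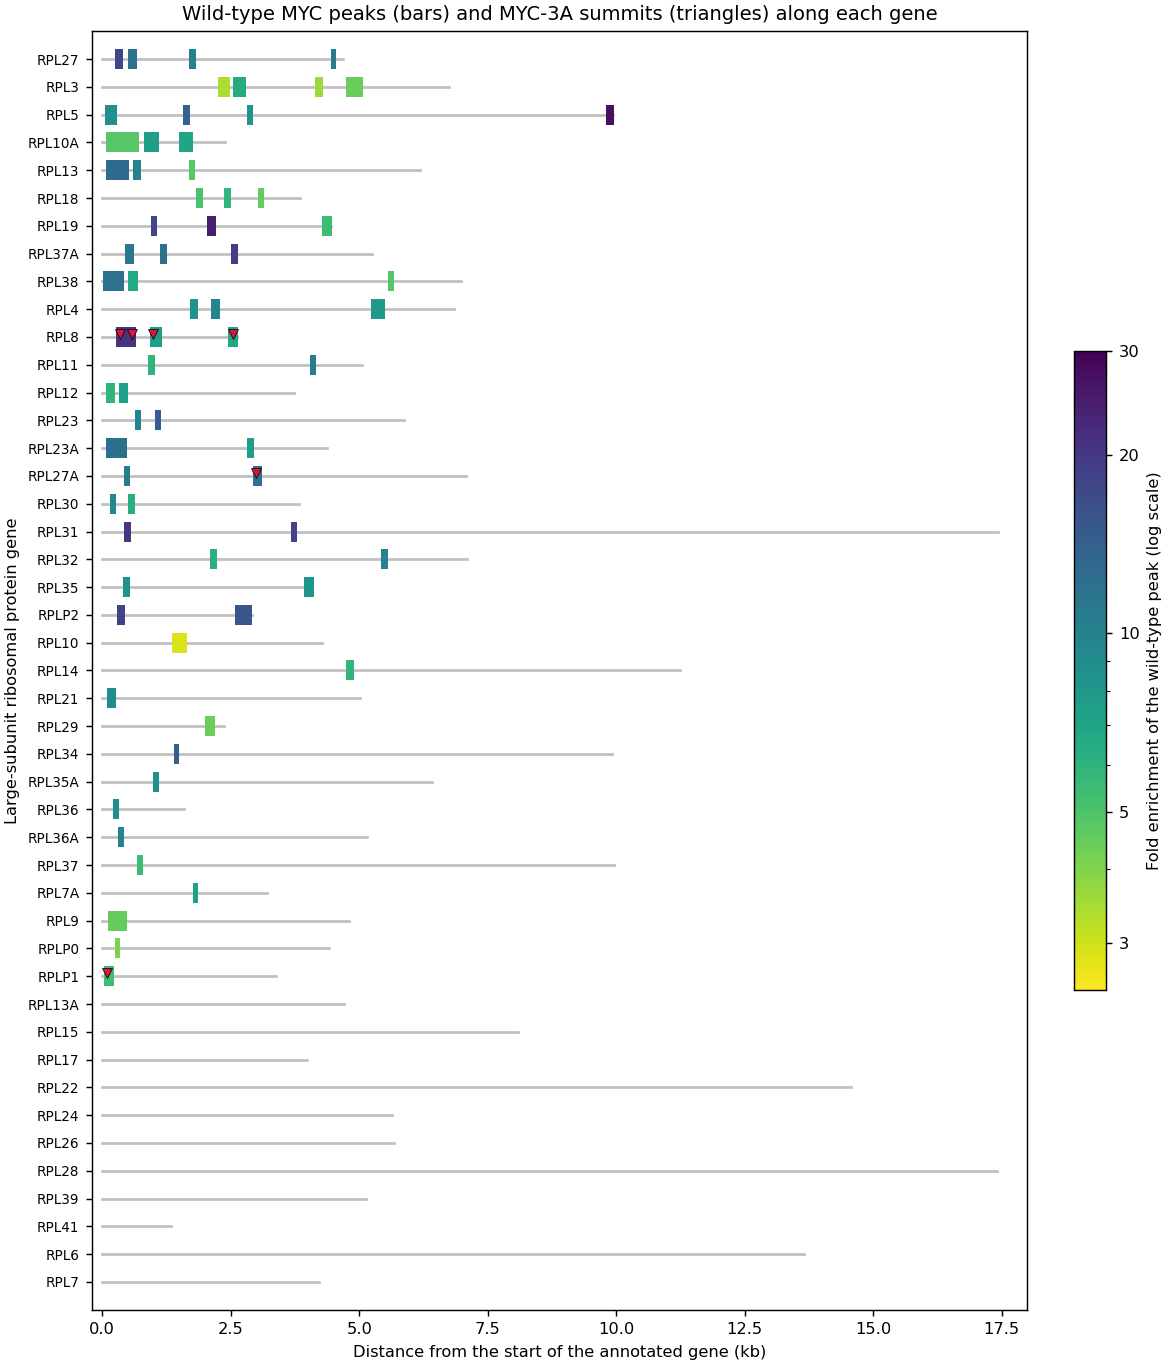
Each row is a gene, drawn as a grey line to scale from its annotated start (0 kb). Bars are wild-type peaks, coloured by fold enrichment on a log scale, and red triangles are summits of 3A peaks. Of the 69 wild-type summits, 30 lie in the first kb, and RPL5 has its strongest bar at its far end. The lowest 11 rows have no bar, and triangles appear only in RPL8, RPL27A and RPLP1.

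Peaks on the gene start itself were absent in the large-subunit genes and rare in all protein-coding genes. No wild-type peak covered the annotated start of a large-subunit gene, taken as the end of the gene span or as any start in the RefSeq promoter table. From the start of the gene span, the closest peaks began 20 bp in at RPL38, 40 bp at RPLP1 and 62 bp at RPL5. RPL12, RPL10A, RPL13, RPL23A and RPL21 followed, at 69 to 94 bp. Some genes have further RefSeq starts inside the span, and from those the first peak of RPL13 began 20 bp and 49 bp away rather than 74 bp, and that of RPL27 96 bp away rather than 242 bp. Across all protein-coding genes, 27 of 2097 pairs of a wild-type peak and a gene (1.29%) covered the start. The count of 0 among the 69 large-subunit peaks is near that share, and small-subunit genes also had 0 of 42. The median distance of the most upstream summit in each of the 34 genes was 501.5 bp.

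The start sequences show the bases around the annotated starts. In the genes shown with a peak they end short of it, except in RPL38, where the peak begins at the next base. RefSeq gives a start for 38 of the 45 genes on GRCh38.p14, and 30 bases are printed below for each of 12 genes, 10 before the start and 20 from it onward, 5′ to 3′ on the gene's strand. Capitals mark the TOP run, here a C followed by at least 4 pyrimidines that begins from 5 bases before to 10 bases after the start, the run nearest the start being shown. Where a gene has several starts, the one with a run nearest to it is shown. The first 6 genes are those with an entry in the table and a wild-type peak that begins within 100 bp of the start of the gene span, a choice made after their values were seen. The last 6 are the first in alphabetical order with no wild-type peak.
RPL38, chr17:74203668-74203697, plus strand: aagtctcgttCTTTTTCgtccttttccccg
RPLP1, chr15:69452808-69452837, plus strand: ggcgcgagagCCCCTTTCCTCagctgccgc
RPL12, chr9:127451387-127451416, minus strand: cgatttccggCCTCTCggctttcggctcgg
RPL10A, chr6:35468391-35468420, plus strand: aagacatgctagtCTCTTTTCCggttagcg
RPL13, chr16:89560672-89560701, plus strand: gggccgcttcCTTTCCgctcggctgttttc
RPL21, chr13:27251548-27251577, plus strand: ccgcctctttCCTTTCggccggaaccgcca
RPL13A, chr19:49487598-49487627, plus strand: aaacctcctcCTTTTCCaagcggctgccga
RPL15, chr3:23916535-23916564, plus strand: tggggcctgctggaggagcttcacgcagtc
RPL17, chr18:49492446-49492475, minus strand: ttccctaagcagcctgaggtgagtgtttct
RPL22, chr1:6199576-6199605, minus strand: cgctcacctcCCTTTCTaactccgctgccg
RPL24, chr3:101686699-101686728, minus strand: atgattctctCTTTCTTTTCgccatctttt
RPL26, chr17:8383174-8383203, minus strand: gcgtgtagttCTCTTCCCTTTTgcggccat

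The run was common in genes with and without a peak. It was found in 27 of 28 genes with a wild-type peak and 7 of 10 without one that had an entry, at any of their starts, and in 5304 of 15843 protein-coding genes (33.5%). By single starts the shares were 74.0% of 50 in the large-subunit genes and 25.9% of all 35116 in the table. The small-subunit genes had it in 23 of 25. RPL15 and RPL17 show none in the window, which says only that these letters are not near the starts listed. In the 6 genes shown with a peak, the capitals lie upstream of it. That order follows from how the genes and the window were chosen, so it is not a result. The E-box CACGTG, the DNA sequence MYC binds with MAX, reads the same on both strands and was in the 300 bases around a start (250 before, 50 after) in 2 of 38 genes, RPL13A and RPL19, and in 10.9% of the protein-coding genes with an entry. Of the 2, only RPL19 had a wild-type RNA peak.

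Large-subunit peaks lay along the whole length of the gene, with most summits in its first 40%. By summit, 18 of 69 (26.1%, interval 17.2 to 37.5) lay within 500 bp of the gene start, and 864 of 2097 pairs over all protein-coding genes did (41.2%, interval 39.1 to 43.3). In genes of the members' length range it was 393 of 973 (40.4%, interval 37.4 to 43.5), an interval that just met that of the large-subunit genes. The small-subunit genes had 13 of 42 (31.0%). With each gene divided into 5 equal segments, 31 large-subunit summits (44.9%) fell in the first, 15 (21.7%) in the second, 6 in the next, 8 in the one after and 9 (13.0%) in the last. In genes of the members' length range the first segment held 48.9%, the second 9.04% and the last 23.6%. In small-subunit genes these were 38.1%, 28.6% and 16.7%. The first segment thus held no larger a share in large-subunit genes than in genes of like length. The second segment thus held a larger share in both ribosomal lists than in genes of like length, a difference that was not tested. Exons and introns were not used here, so it is not known whether these peaks lie in exons.

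**Figure D4:**
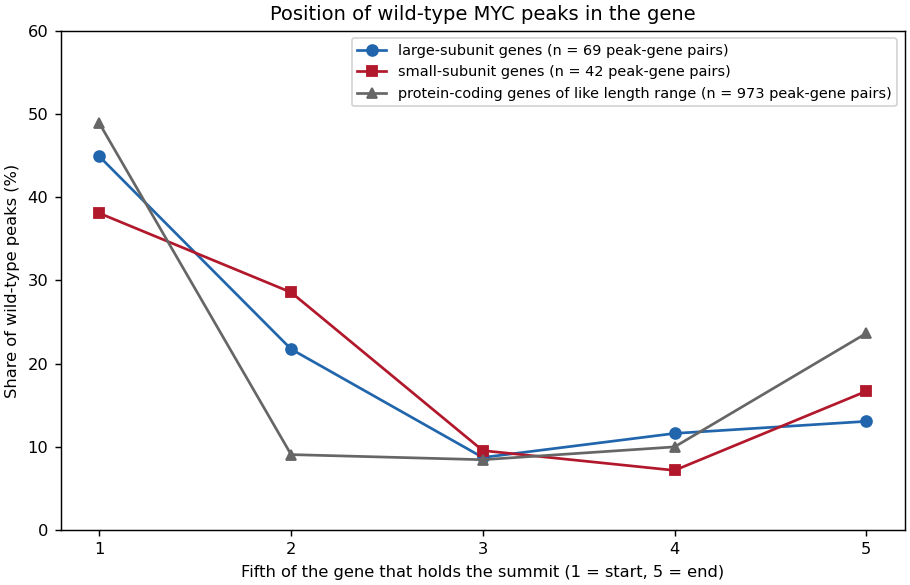
Share of wild-type peaks (vertical, %) by the segment of the gene that holds the summit (horizontal, 5 equal segments from start to end), for large-subunit genes (69 pairs of a peak and a gene), small-subunit genes (42) and protein-coding genes of the members' length range (973). All 3 lines are highest in the first segment, and the 2 ribosomal lines lie above the other in the second.

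The strength of a peak showed no steady order along the gene. From the first segment to the last, median fold enrichment was 9.64, 7.63, 9.51, 6.41 and 8.10. In the 21 genes with several peaks, the most upstream had the highest fold enrichment in 9 and the most downstream in 7. Neighbouring summits of a gene were 187 to 6979 bp apart, with a median of 1210 bp over 35 gaps. Summits in the last 10% of the gene were found in RPL5, RPL8, RPL19, RPL27, RPL35 and RPLP2, and 5 of these 6 genes also had a summit within 500 bp of the start. The exception was RPL19. Peaks of RPL5, RPL8, RPL19 and RPL35 ran past the annotated end, by at most 34 bp.

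The strand of each peak was that of the gene wherever the table gave it (55 of 55 peaks, in 28 genes). Other annotated genes overlapped 12 of the 69 peaks. Small nucleolar RNA genes, which sit in introns of many ribosomal protein genes, numbered 40 in 19 of the 45 members. Among the 69 peaks, 2 touched such a gene, and neither summit was in the small RNA. A peak of RPL23 shared 30 bp with SNORA21, and a peak of RPL3 held all 55 bp of SNORD139. No share for other peaks was computed, so this count is not read as low or high. Of 1261 named pseudogenes of the 45 genes, 27 had a wild-type peak, with 31 peaks of fold enrichment 2.88 to 30.4. They belonged to 23 parents, of which 22 had a peak of their own, and in 11 of these a pseudogene peak was stronger than the best peak of the parent. The strongest was at RPL4P4 (30.4, against 9.75 at RPL4), and RPL24 was the parent without a peak of its own (RPL24P4, 10.1). Of the 31 pseudogene peaks, 12 lay inside another protein-coding gene, among them those at RPL4P4 (in MAP3K13) and RPL24P4 (in CNPY3-GNMT). Whether reads there came from the parent, the pseudogene or the host gene cannot be told apart.

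The mutant lists, far shorter than that of the wild type, held 6 peaks (3A) and 0 peaks (7A) on these genes. The 3A list had 6 peaks in 3 of the 45 genes, RPL8, RPL27A and RPLP1 (6.67% of the members), where 0.359% of all protein-coding genes had a 3A peak. The 7A list had 0 of 88 peaks in a large-subunit gene, which allows a share of up to 3.41% of such a list. Only 0.27% of all protein-coding genes had a 7A peak, so 0 of 45 is near that share and is not a result about these genes. The small-subunit genes had 2 peaks in the 3A list, in RPS2 and RPS20, and also 0 in the 7A list. The large-subunit share was 5.83% of the 3A list (interval 2.70 to 12.1) and 3.21% of the wild-type list (2.54 to 4.04), and the intervals overlapped.

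Each of the 6 3A peaks in these genes overlapped a wild-type peak on its strand. The share of all 103 3A peaks that overlap a wild-type peak was not computed. The overlap of all 6 is therefore not read as particular to these genes. RPL8 held 4 of them, all on chromosome 8. The strongest, from 144791962 to 144792112 (fold enrichment 11.5, rank 23 of 103), had its summit at the same base as the wild-type peak from 144791727 to 144792126. Both of these peaks also overlapped the microRNA gene MIR6850. A second 3A peak, from 144791747 to 144791856 (4.98), lay within that same wild-type peak, 223 bp away by summit. The other RPL8 peaks, from 144791243 to 144791438 (4.03) and from 144789751 to 144789886 (5.16), had summits 1 and 5 bp from those of the wild type. So each of the 3 wild-type positions in RPL8 was also a 3A position.

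The other 3A positions were single. In RPLP1 the 3A peak from 69452870 to 69453014 had a fold enrichment of 4.35 (rank 69 of 103) and a −log10 q of 102 (rank 11), with its summit 1 bp from that of the wild type. The position thus combined a low rank by fold enrichment and a high rank by −log10 q in both lists. In RPL27A the 3A peak from 8685723 to 8685878 (7.69, rank 42) lay wholly within the wild-type peak from 8685719 to 8685889, with summits 8 bp apart. The other wild-type peak of RPL27A, nearer the start from 8683220 to 8683328, was met by no 3A peak.

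Of the 69 wild-type large-subunit peaks, 5 were met by a 3A peak (7.25%) and 0 by a 7A peak, and of all 2149 wild-type peaks 76 (3.54%) and 30 (1.40%) were. The 5 had ranks of 10, 20, 93, 102 and 338 by −log10 q in the wild-type list, and of 80, 498, 1217, 1346 and 1689 by fold enrichment. They thus stood high by the first measure and ranged widely by the second. When wild-type peaks were ordered by −log10 q, 12 of the first 103 (11.7%) were on large-subunit genes and 4 of these 12 (33.3%) were met by a 3A peak, as were 38 of all 103 (36.9%). The genes of the 12 were RPL5, RPL8, RPL13, RPL27, RPL37A, RPLP1 and RPLP2. RPL37A, with 3 peaks among these, and RPL13, with 2, had no 3A peak. Of the first 88, 8 (9.09%) were on large-subunit genes and 0 of these were met by a 7A peak, while 10 of all 88 (11.4%) were.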

How the data were processed

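Peaks came from eCLIP of doxycycline-treated cells, 1 deposited list per allele in narrowPeak layout on hg38. Per the submitters' processing notes, cutadapt, BWA and MACS2 were used. The sources used here do not give versions, settings, the control or whether replicates were pooled. The deposited column 7 was read as a fold enrichment (a ratio over an unnamed background), column 9 as the authors' −log10 q, and column 10 as the summit's offset in bp. Depth is unknown, so Wilson intervals at 95% cover counting over genes or peaks only.

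Coordinates were made 1-based. Gene spans and starts came from RefSeq tables of GRCh38.p14. A peak belonged to a gene if they shared at least 1 bp. Gene starts followed the peak's strand. No test was made, since each allele has 1 list. Alternatives changed the overlap rule, the q and fold limits, the strand rule, the start window, the ranking measure and the wild-type peaks set against each mutant. The upper limit for a count of 0 used 3 counts. The overlap code was checked on made intervals. Members and gene lists were chosen with earlier results of these data known. All members were named by rule, with full values for those with a mutant peak, the 10 of highest fold enrichment and those with most peaks. No wild-type peak covered the start of a member, so the sequence rule was changed to the nearest peaks. Sequences are RefSeq's. Some genes beside the list are not reported here. Computations ran under Python 3.11.15 with SciPy 1.17.1, NumPy 2.4.6, pandas 2.3.3 and matplotlib 3.10.9.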

Additional observations from a re-analysis of the deposited data

How the results depend on the processing

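Of 26 alternative values of 8 results, 19 stayed close to the value reported, within 1.5 times for counts and within the Wilson interval for shares. Some of the 19 could not have moved. Each alternative for 7A could only remove peaks, so its count of 0 was fixed. The lowest −log10 q of a member's wild-type peak was 5.38, so a limit of 5 removed none of these peaks. The counts of 34, 3 and 0 member genes with a wild-type, 3A and 7A peak were the same with the summit inside the gene, with at least 50% of the peak inside it, with a −log10 q of at least 5, and on the strand of the gene only (for the mutants chosen after seeing the data). The strand rule could not be applied to RPL5, RPL8, RPL23, RPL23A, RPL30 and RPL37, whose strand the table does not give and whose peaks were all kept. With only the peaks whose fold enrichment reached their list's median, 22 genes had one in the wild type, by construction of a shorter list, and 2 in 3A. The share of summits near the start was 1.45% with a window of 100 bp, 10.1% with 250 bp and 43.5% with 1000 bp. Against the nearest start of the promoter table, a setting chosen after seeing the data, it was 27.3%. The median rank of members' wild-type peaks was 1004 by fold enrichment and 559 by −log10 q. The members' share of the 3A list was 2.61 percentage points above that of the whole wild-type list and -5.83 points relative to the first 103 wild-type peaks by −log10 q, so the direction depended on the wild-type peaks compared, and the cause was not tested. For 7A the difference was -3.21 points and -9.09 points against the first 88. The small mutant lists and the unknown depth limit every comparison with them. No paired analysis was possible because replicates carry no values of their own in these lists, and for that reason none could be left out.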
